A study of Homo sapiens with 95 samples.

Results

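The CSC response of CDKN2A knockout cells was measured in 6 of the 95 SFL libraries of the series, 3 treated with cigarette smoke condensate (CSC) and 3 with its solvent DMSO. In SFL, ribosomal RNA is removed and samples with their own barcode pairs are sequenced together as one pool. All cells were AALE, human bronchial epithelial cells that had been immortalized. The knockout line was made by CRISPR against CDKN2A, and its control line carried the GFP plasmid pSpCas9-EGFP (PX458), which encodes Cas9, with no guide RNA. Both lines were grown to confluence in 24-well plates before CSC at 24 μg/ml or DMSO was added. The samples were chosen by their labels, and the comparison used the 14148 of 27978 listed genes whose mean count over the 6 libraries was above 1. Most called changes named are set beside those of 3 GFP libraries with CSC against 3 with DMSO. The time of exposure, and whether the knockout line was 1 clone or a pool, are not given in the sources used here. The study describes the 3 samples of a group as biological replicates without saying how far their cultures were kept apart, and the p-values measure the spread between them.

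Smoke condensate holds aromatic hydrocarbons that bind the aryl hydrocarbon receptor (AhR), which pairs with ARNT and switches on genes of foreign compound metabolism such as CYP1A1. It also holds electrophiles and oxidants, and these free the transcription factor NRF2 from KEAP1, so that genes of glutathione synthesis, thioredoxin, NADPH supply and ferritin are transcribed. CDKN2A encodes p16INK4A, an inhibitor of the cyclin D kinases, and p14ARF, an inhibitor of MDM2. In normal cells these act as a brake on cell cycle entry and a link to p53. Whether either still works in the immortalized AALE cells was not tested. In airway epithelium, basal cells that carry KRT5 and TP63 are the dividing stem cells.

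The CSC libraries of the knockout line held 485031 to 864679 counted reads, and its DMSO libraries held 988951 to 1174021. The GFP libraries held 987704 to 1517412 reads. The 3 knockout CSC libraries were thus each shallower than every knockout DMSO library, and 3 counts amounted to 2.56 to 6.19 CPM in the 6 knockout libraries. Levels below are CPM, which are reads per 1e6 scaled reads of a library, with TMM scaling over the 12 libraries. The basal markers KRT5, KRT14, KRT17, TP63, ITGA6, ITGB4 and NGFR had reads in all 4 groups. The 7 club, goblet and ciliated cell markers summed to at most 4 CPM per library, with SCGB1A1, SCGB3A1 and MUC5AC at 0 in all 12. The 6 fibroblast markers summed to 38 to 55.8 CPM with CSC and 25 to 34.2 CPM with DMSO in the knockout line, with COL3A1 and LUM at 0. The 7 endothelial and blood cell markers summed to 6.70 to 24.4 CPM with CSC and 11.1 to 12.9 CPM with DMSO, with CDH5, CD3E and HBB at 0. The part of other cell types in any change was not tested.

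CDKN2A itself lies on chromosome 9 at 21967751 to 21995300, on the minus strand of GRCh37. It read 37, 39.2 and 46.7 CPM in the knockout DMSO libraries and 82.5, 99.6 and 79.3 CPM in the GFP DMSO libraries. Of all genes 37.9% differed between the lines with DMSO and 20.3% were lower in the knockout line, and for CDKN2A all 3 knockout libraries lay below all 3 GFP libraries, at a log2 difference of -1.10 ± 0.16 (SE) with an adjusted p of 2.8e-08 by limma. A CRISPR knockout changes the sequence and need not lower the RNA, so the remaining reads do not measure the protein. With CSC the knockout line read 67.5, 52.1 and 53.6 CPM, above its DMSO libraries without overlap, at a log2 fold change of 0.50 ± 0.20 and an adjusted p of 0.0846, which did not pass 0.05. In GFP cells the change was 0.38 ± 0.12 with an adjusted p of 0.0171, a call lost without CSC replicate 1 (0.34) or 2 (0.34) or DMSO replicate 1 (0.35) or 3 (0.31) of that line. None of the 4 genes of the locus passed in the knockout line by limma-voom, edgeR or DESeq2, and 1 had an unadjusted p under 0.05. There CDKN2B, the neighbouring inhibitor of the same kinases, gave 0.10 ± 0.19 and MTAP, a methionine salvage enzyme, gave 0.12 ± 0.16.

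CSC changed 1590 genes in the knockout line at an adjusted p under 0.05 by limma-voom, which is 11.2% of those tested. Of these, 845 rose (5.97%) and 745 fell (5.27%). The counts of list members given below stand beside these shares and were not tested against them. Most changes were small, since the median absolute log2 change of the called genes was 0.59, with 241 genes past 2-fold upward and 39 past 2-fold downward. The 3 CSC and 3 DMSO libraries did not overlap in 26.8% of the genes tested, 12.3% with CSC higher and 14.5% with CSC lower. The same test called 25% of 14328 genes in GFP cells, 12% higher and 13.0% lower. Of the 1573 knockout calls tested in both lines, 1091 were also called in GFP cells in the same direction, which is 69.4% of the knockout calls and 30.6% of the 3561 GFP calls. A single gene, MAPK9, was called in opposite directions. These 2 comparisons share no sample, but the changes of both followed the GC content of the gene, as set out next. The overlap was counted without a correction for it.

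Changes followed the GC content of the gene, with a Spearman correlation of 0.47 in the knockout line and 0.614 in GFP cells. In 5 equal bins of genes from the lowest GC content to the highest, the median log2 change in the knockout line was -0.21, -0.14, -0.04, 0.16 and 0.41. The share of genes called higher went from 0.788% to 17.8% over these bins, and the share called lower went from 13.0% to 0.3%. The mean GC content of the genes behind the counted reads was 47.26% to 47.83% in the CSC libraries and 46.32% to 46.55% in the DMSO libraries, which do not overlap. When the fit was corrected for GC content and for exon length, 728 of 13320 genes were called, 461 higher and 267 lower, against 1545 of the same genes without it, 852 higher and 693 lower. The correction kept 469 of the 1590 knockout calls and 653 of the 3575 GFP calls. DESeq2 called 488 genes in the knockout line, and 841 were called there after all libraries were thinned to the depth of the smallest, a choice made after seeing the data. The part of GC content and depth in any single gene's change was not tested.

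**Figure D1:**
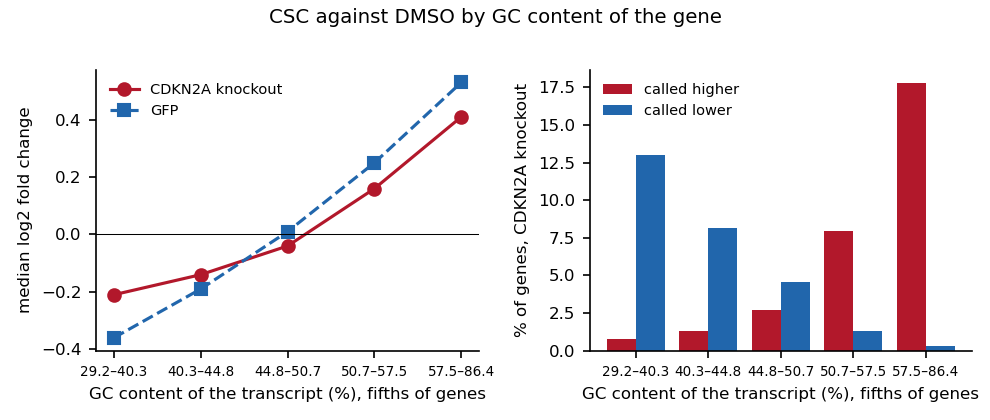
Left, the median log2 fold change of CSC against DMSO in 5 equal bins of genes by the GC content of the transcript (x axis, percent), for CDKN2A knockout cells (circles) and GFP cells (squares); right, the percentage of genes of each bin called higher or lower in the knockout line. The knockout median climbs from -0.21 in the lowest bin to 0.41 in the highest, and the GFP median from -0.36 to 0.53.

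Among the AhR targets CYP1A1 and CYP1B1 had the largest rises of the called genes with a mean count of 10 or more and groups apart. Of 10 listed genes 9 were tested, 7 rose and 0 fell, with a list median of 1.5 against 0.00 over all genes, and the count was also 7 with the GC correction and with thinned libraries. CYP1A1, the monooxygenase that oxidizes aromatic hydrocarbons, read 227, 288 and 397 CPM with CSC and 18.1, 18.1 and 15 CPM with DMSO. Every CSC library was thus far above every DMSO library, by 18.1-fold or a log2 fold change of 4.18 ± 0.22 (SE) with an adjusted p of 4.73e-45. In GFP cells the mean was 484 CPM with CSC and 7.79 CPM with DMSO, a log2 change of 5.97 ± 0.32, and over the 6 other lines the change lay between 4.49 and 8.48. In libraries thinned to equal depth the knockout change was 5.2. The main knockout value was lower than each of these, but its call as a difference from GFP cells was not stable and is taken up further on. CYP1B1, a related enzyme that also acts on estrogens, read 1005, 951 and 1152 CPM with CSC and 114, 77.5 and 106 CPM with DMSO. Its rise of 3.43 ± 0.10 had an adjusted p of 1.93e-86, beside 3.71 ± 0.12 in GFP cells.

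Of the induced genes, TIPARP and AHRR are feedback inhibitors of the receptor. TIPARP, which ADP-ribosylates the receptor, read 514, 441 and 424 CPM with CSC and 174, 151 and 159 CPM with DMSO, and rose by 1.5 ± 0.09 in the knockout line and by 1.5 ± 0.10 in GFP cells. AHRR, the repressor that competes for ARNT, had 6, 5 and 18 reads with CSC and 1, 1 and 6 reads with DMSO. On these few reads its rise was 2.76 ± 0.62 with an adjusted p of 0.000453. CSC replicate 1 and DMSO replicate 3 each held 6 reads, at 11.2 and 5.28 CPM. The GFP value was 3.62 ± 0.67. NQO1, a quinone reductase that is a target of both AhR and NRF2, went from 109, 113 and 107 CPM to 309, 254 and 261 CPM, a rise of 1.33 ± 0.11. ALDH3A1, an aldehyde dehydrogenase, went from 19.8, 22.1 and 15 CPM to 76.8, 110 and 94.9 CPM, a rise of 2.32 ± 0.22. SLC7A5, a transporter of large amino acids, went from 1420, 1447 and 1525 CPM to 2281, 2785 and 2576 CPM, a rise of 0.81 ± 0.04. None of these 5 genes had overlapping groups. In GFP cells NQO1 gave 1.64 ± 0.09, ALDH3A1 gave 1.94 ± 0.24 and SLC7A5 gave 1.14 ± 0.04. The remaining members were LRAT, at -0.23 ± 0.42, UGT1A6, at 0.28 ± 0.56, and CYP1A2, which had 3 reads in the 6 knockout libraries and was not tested.

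The receptor and its partners did not follow their targets. AHR read 202, 208 and 222 CPM with CSC and 224, 184 and 241 CPM with DMSO, with overlapping groups and a log2 change of -0.01 ± 0.11. ARNT gave -0.05 ± 0.16. Of 7 genes of the receptor complex 0 rose and 2 fell, both of them cytosolic HSP90 chaperones that hold the receptor, HSP90AA1 by -0.31 ± 0.02 and HSP90AB1 by -0.48 ± 0.05, beside -0.34 ± 0.03 and -0.24 ± 0.04 in GFP cells.

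The AhR with ARNT binds DNA at sites with the core GCGTG, and the start regions of 4 induced genes are shown because they hold this core or its reverse complement CACGC. They are the 250 bases before a RefSeq start site on GRCh38.p14, written 5′ to 3′ on the strand of the gene, with each match in capitals. The core stood on either strand in 11313 of 35116 such regions of all genes (32.2%). Of the 10 AhR targets 8 were in the table, with 12 start sites, 6 of which held the core, and 5 genes had it at a start site. CYP1B1 and ALDH3A1 were not in it.
CYP1A1, chr15:74725529-74725778, minus strand, 1 core at -57: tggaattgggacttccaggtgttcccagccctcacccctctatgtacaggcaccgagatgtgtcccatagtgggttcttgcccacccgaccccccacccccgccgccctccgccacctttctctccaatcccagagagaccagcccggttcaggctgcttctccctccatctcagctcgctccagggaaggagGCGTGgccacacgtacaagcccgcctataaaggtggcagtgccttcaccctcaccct
AHRR, first start site, chr5:321464-321713, plus strand, 1 core at -30: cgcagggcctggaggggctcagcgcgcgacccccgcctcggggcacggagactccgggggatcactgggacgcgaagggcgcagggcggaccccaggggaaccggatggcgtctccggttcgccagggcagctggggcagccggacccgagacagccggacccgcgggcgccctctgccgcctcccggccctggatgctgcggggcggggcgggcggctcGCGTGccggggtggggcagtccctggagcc
TIPARP, first start site, chr3:156674340-156674589, plus strand, reverse cores at -208 and -142: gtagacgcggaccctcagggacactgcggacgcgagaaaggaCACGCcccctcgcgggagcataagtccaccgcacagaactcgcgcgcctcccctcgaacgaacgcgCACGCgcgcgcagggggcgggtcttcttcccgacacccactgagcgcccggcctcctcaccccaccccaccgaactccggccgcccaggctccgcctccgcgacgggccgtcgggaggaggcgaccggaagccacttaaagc
SLC7A5, chr16:87869508-87869757, minus strand, 1 reverse core at -173: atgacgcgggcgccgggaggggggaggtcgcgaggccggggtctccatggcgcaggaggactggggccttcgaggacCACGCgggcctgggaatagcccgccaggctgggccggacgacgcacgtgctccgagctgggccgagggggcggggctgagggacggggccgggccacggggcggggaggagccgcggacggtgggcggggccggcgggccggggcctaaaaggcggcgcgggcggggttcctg
The window of NQO1 held no match. UGT1A6, which was not called in the knockout line, held 1 core at its first start site, at -200. Positions count from the start site to the first base of the match. A match is a string of letters, and binding was not measured.

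**Figure D2:**
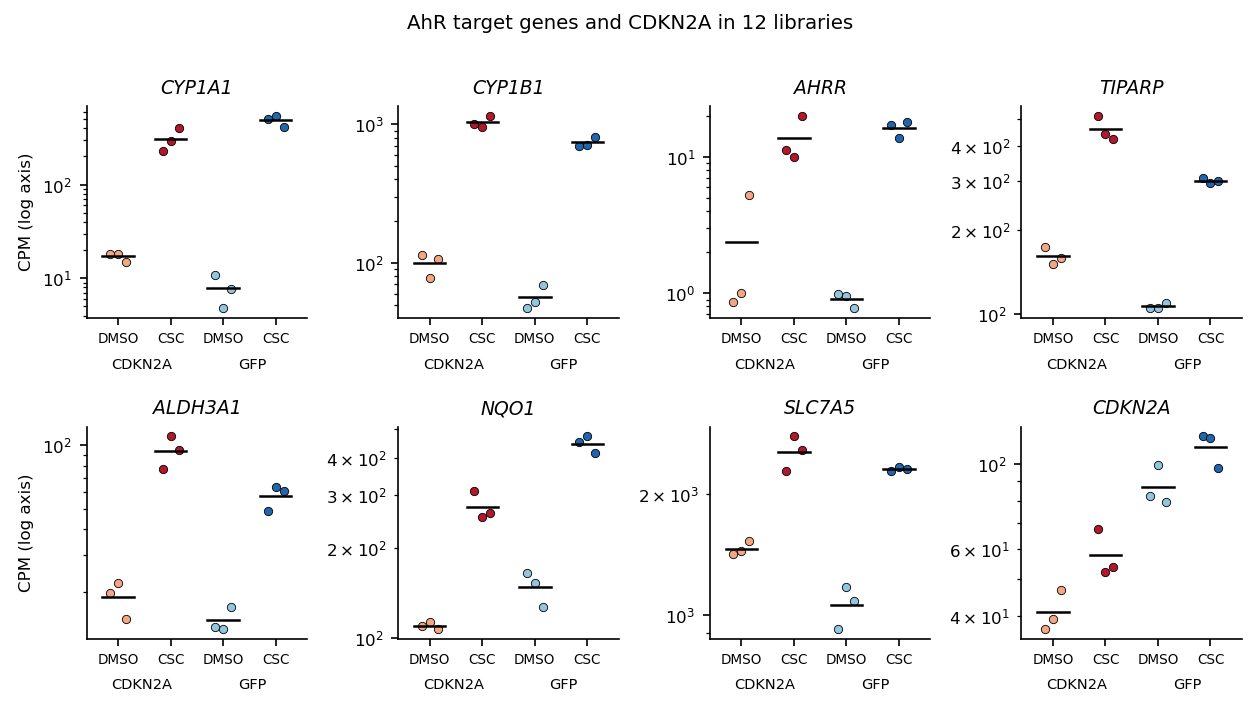
CPM (log axis) of 7 AhR target genes and CDKN2A in the 12 libraries, grouped as DMSO and CSC of CDKN2A knockout cells and of GFP cells; points are libraries and lines are means of 3. CYP1A1 stands at 227 to 397 CPM with CSC and 15 to 18.1 CPM with DMSO in the knockout line. Each panel has its own axis, and the CSC points of CDKN2A in that line lie above its DMSO points without overlap.

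NFE2L2, the gene of NRF2, read 165, 194 and 182 CPM with CSC and 180, 212 and 204 CPM with DMSO, at -0.12 ± 0.11, and KEAP1, its inhibitor, gave -0.03 ± 0.15 in the knockout line and 0.72 ± 0.14 in GFP cells. The difference for KEAP1 had an adjusted p of 0.115 and did not pass. Of 8 regulators 4 rose and 0 fell, and these were the small MAF partners MAFF (1.33 ± 0.32), MAFK (0.84 ± 0.22) and MAFG (0.73 ± 0.17) and the autophagy receptor SQSTM1, which binds KEAP1. SQSTM1 went from 313, 333 and 303 CPM to 617, 685 and 526 CPM, without overlap, a rise of 0.92 ± 0.08. In GFP cells SQSTM1 gave 1.38 ± 0.09, MAFF 1.56 ± 0.40, MAFK 0.82 ± 0.24 and MAFG 1.22 ± 0.18. The rise of MAFK in the knockout line did not pass with the GC correction, nor that of MAFF with thinned libraries. Neither passed by DESeq2.

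Of 14 genes of glutathione, thioredoxin and NADPH supply 8 rose and 0 fell, with a median of 0.43, and in GFP cells 11 of 14 rose. TXNRD1, thioredoxin reductase, read 487, 491 and 564 CPM with CSC and 307, 326 and 309 CPM with DMSO, a rise of 0.75 ± 0.08. GCLC, the catalytic subunit of the first enzyme of glutathione synthesis, read 274, 252 and 243 CPM with CSC and 165, 187 and 168 CPM with DMSO, a rise of 0.57 ± 0.10. Both genes had CSC libraries that all lay above the DMSO libraries. The modifier subunit GCLM rose by 0.47 ± 0.13, a call that was lost by DESeq2 and without CSC replicate 3 (0.41). Of the other members, the peroxiredoxin PRDX1 rose by 0.41 ± 0.07, the pentose phosphate enzyme TKT by 0.46 ± 0.09, the sulfiredoxin SRXN1 by 0.49 ± 0.10 and the cystine transporter SLC7A11 by 0.39 ± 0.06. In GFP cells the rises were 1.03 ± 0.07 for TXNRD1, 0.75 ± 0.10 for GCLC, 0.59 ± 0.10 for GCLM, 0.64 ± 0.07 for PRDX1 and 0.79 ± 0.06 for TKT. SRXN1 rose by 1.21 ± 0.11 there, and its difference between the lines of -0.70 ± 0.15 was called, with an adjusted p of 0.00938 by limma. That call was lost without GFP CSC replicate 2 (-0.65), by DESeq2 and with thinned libraries. Glutathione reductase, GSR, gave 0.14 ± 0.11.

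Ferritin rose among the detoxifying and heme genes, of which 9 of 20 rose and 0 fell, with a median of 0.95. The ferritin light chain FTL read 1940, 2092 and 1775 CPM with CSC and 646, 605 and 647 CPM with DMSO. Its groups were far apart, at 3.02-fold or 1.6 ± 0.05 with an adjusted p of 3.56e-81, beside 1.86 ± 0.09 in GFP cells. The heavy chain FTH1 rose by 0.91 ± 0.05, the export pump ABCC3 by 0.97 ± 0.18, the iron-binding protein PIR by 1.13 ± 0.27 and TRIM16L by 1.01 ± 0.23. The call of PIR was lost by DESeq2. In GFP cells FTH1 gave 1.06 ± 0.07, ABCC3 gave 1.35 ± 0.17 and PIR gave 0.42 ± 0.30, and TRIM16L rose there too. HMOX1, heme oxygenase, read 7.5, 12 and 13.4 CPM with CSC and 4.30, 8.05 and 6.16 CPM with DMSO, with overlapping groups and 0.93 ± 0.46, which did not pass. With thinned libraries 6 of 19 genes tested of this group were called. The aldo-keto reductases AKR1C2 and AKR1C3 are near copies of one another, so their values are uncertain where reads fit both. The calls of both were lost in 5 of 6 fits that each left out 1 library, with changes of 1.07 to 1.6 and 1.2 to 1.57. In such fits of GFP cells AKR1C2 gave -0.7 to 0.02 and was not called, and AKR1C3 gave 0.54 to 2.81.

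Conjugating enzymes and metal-binding proteins changed in part. Of 14 phase II enzymes tested 2 rose and 0 fell, the glutathione transferases MGST1 (0.52 ± 0.12) and GSTP1 (0.46 ± 0.09), and the call of GSTP1 did not pass with the GC correction, which left 1 of the 14. In GFP cells they gave 0.24 ± 0.09 and 0.66 ± 0.07. Among 7 aldehyde dehydrogenases tested 2 rose, ALDH3A1 and ALDH1A3. In the fits that each left out 1 library ALDH1A3 gave 1.07 to 1.16, beside 1.35 to 1.65 in GFP cells. Of 4 metallothioneins tested 3 rose. MT2A, which binds zinc and copper, went from 799, 664 and 770 CPM to 1722, 1506 and 1343 CPM, a rise of 1.0 ± 0.05 beside 0.80 ± 0.07 in GFP cells, and the CSC libraries all lay above the DMSO libraries. MT1X rose by 0.83 ± 0.17 and MT1E by 0.45 ± 0.10, while in GFP cells they gave 0.17 ± 0.17 and -0.03 ± 0.11. Neither difference between the lines passed, at adjusted p of 0.268 and 0.161.

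**Figure D3:**
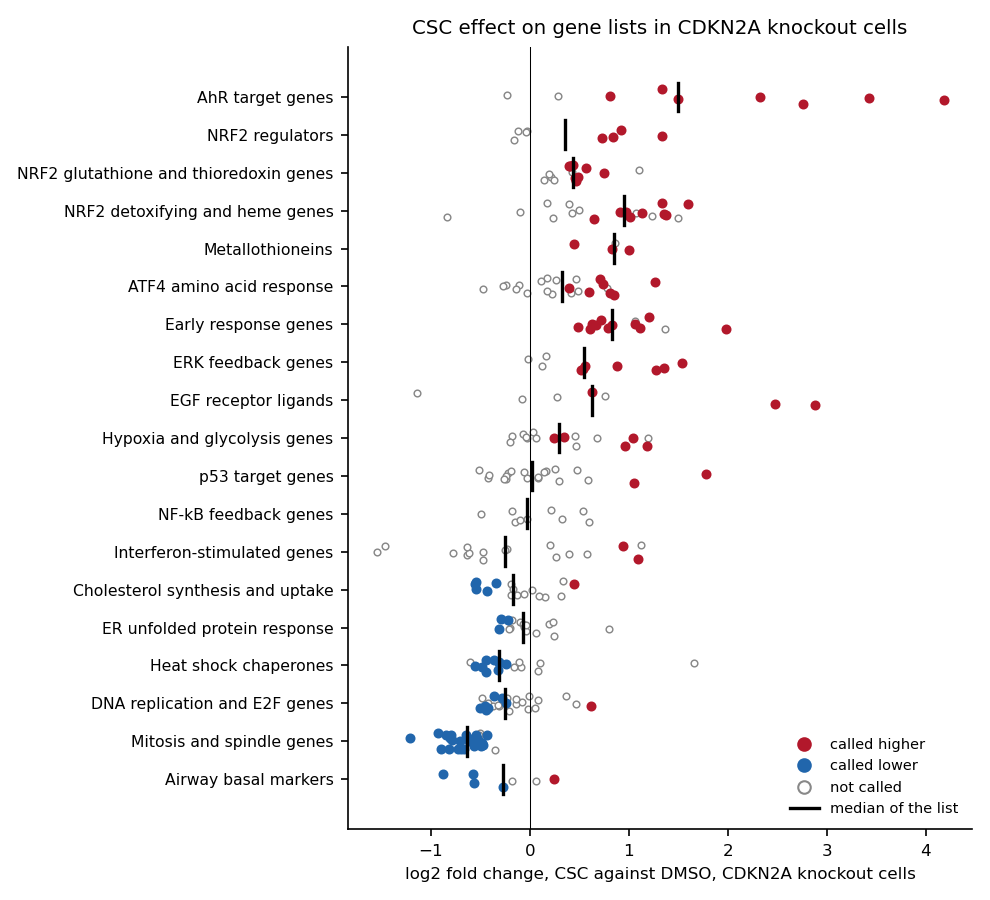
Log2 fold change of CSC against DMSO in CDKN2A knockout cells (x axis) for the members of 19 gene lists (rows); filled points passed the test and vertical bars are list medians. AhR targets stand furthest to the right, with a median of 1.5, and mitosis and spindle genes furthest to the left, with a median of -0.63.

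Early response genes are transcription factors switched on within the first wave after a stimulus, and 11 of 13 tested rose and 0 fell, with a median of 0.83. FOS, a subunit of AP-1, went from 11.2, 16.1 and 12.3 CPM to 54.4, 52.1 and 49.1 CPM, a rise of 1.98 ± 0.27 beside 2.07 ± 0.32 in GFP cells. JUNB, another subunit, went from 78.3, 64.4 and 87.2 CPM to 139, 180 and 171 CPM, a rise of 1.11 ± 0.14. Neither gene had overlapping groups. MYC rose by 0.79 ± 0.11 and FOSL1 by 1.06 ± 0.23. In GFP cells JUNB gave 1.10 ± 0.15, MYC 1.54 ± 0.17 and FOSL1 2.39 ± 0.39, and the differences of MYC and FOSL1, -0.73 ± 0.20 and -1.31 ± 0.45, did not pass. The count was 7 of 13 with the GC correction, which is fewer by more than 1.5 times.

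Of 10 genes that damp ERK signalling 7 rose and 0 fell, with a median of 0.55. The count stayed at 7 with the GC correction, was 5 with thinned libraries and lay at 4 to 7 in the 6 fits that each left out 1 library. DUSP1, a phosphatase of MAP kinases, went from 125, 107 and 112 CPM to 332, 346 and 322 CPM, a rise of 1.54 ± 0.11 beside 1.66 ± 0.15 in GFP cells. The phosphatases DUSP4 and DUSP5 rose by 0.88 ± 0.14 and 1.27 ± 0.22, and SPRY4, an inhibitor of receptor tyrosine kinase signalling, by 1.35 ± 0.24. In GFP cells these gave 1.65 ± 0.20, 1.29 ± 0.38 and 2.07 ± 0.48. Of 7 ligands of the EGF receptor 3 rose. Amphiregulin, AREG, had 14, 14 and 18 reads with CSC and 6, 1 and 4 reads with DMSO, and its CPM did not overlap. Its rise was 2.88 ± 0.51 with an adjusted p of 3.95e-06. Epigen, EPGN, went from 5.16, 16.1 and 6.16 CPM to 41.2, 48.1 and 44.7 CPM, a rise of 2.48 ± 0.33. Epiregulin, EREG, rose by 0.63 ± 0.12, while HBEGF gave 0.76 ± 0.29 and did not pass. In GFP cells AREG gave 2.42 ± 0.69, EPGN gave 1.30 ± 0.51 and EREG gave 1.18 ± 0.26.

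Inflammatory genes gave few calls. Of 18 cytokines and chemokines 9 were tested and 1 rose, the alarmin IL1A, from 38.7, 33.2 and 38.7 CPM to 118, 100 and 88.2 CPM. Its groups lay apart, at 1.43 ± 0.18 beside 1.51 ± 0.26 in GFP cells. None of 9 NF-kB feedback genes passed by limma-voom, edgeR or DESeq2 and 0 had an unadjusted p under 0.05, with a median of -0.03. Of 17 interferon-stimulated genes tested 2 passed, IFI6 and IRF7, and with the GC correction and with thinned libraries 0 did. IFI6 was called in 1 and IRF7 in 0 of the 6 fits that each left out 1 library, with lowest changes of 0.73 and 0.72.

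Of 22 genes of the ATF4 amino acid response 7 rose and 0 fell, with a median of 0.32, although ATF4 itself gave -0.03 ± 0.11. CEBPB, a transcription factor, went from 37, 39.2 and 39.6 CPM to 116, 80.1 and 86.0 CPM, a rise of 1.26 ± 0.18. The pseudokinase TRIB3 rose by 0.85 ± 0.13, SLC3A2, the partner chain of SLC7A5, by 0.71 ± 0.07, and DDIT4, an inhibitor of mTORC1, by 0.60 ± 0.08. In GFP cells CEBPB gave 0.71 ± 0.18, TRIB3 0.72 ± 0.15 and SLC3A2 0.78 ± 0.07. DDIT4 rose by 1.11 ± 0.07 there, and its difference of -0.49 ± 0.11 was called, with an adjusted p of 0.00938 by limma. That call was lost without CDKN2A CSC replicate 1 (-0.44), by DESeq2 and with thinned libraries. DDIT3, the transcription factor CHOP, gave -0.47 ± 0.34.

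Of 16 heat shock chaperones tested 0 rose and 9 fell, with a median of -0.31, and in GFP cells 2 rose and 9 fell. HSPA8, the constitutive cytosolic HSP70, went from 1428, 1284 and 1362 CPM to 1033, 985 and 826 CPM, a fall of -0.55 ± 0.05 with no overlap, beside -0.30 ± 0.05 in GFP cells. With the GC correction 4 of the 16 fell and with thinned libraries 6, and the mitochondrial chaperone HSPD1 (-0.44 ± 0.07, beside -0.25 ± 0.07 in GFP cells) was among those whose call ended with that correction. Of 16 genes of the unfolded protein response in the endoplasmic reticulum 0 rose and 3 fell, among them HSPA5 (-0.22 ± 0.04) and HSP90B1 (-0.29 ± 0.05). With the GC correction 2 genes of the group were called higher and 1 lower, and neither HSPA5 (-0.04) nor HSP90B1 (-0.04) passed. In GFP cells they gave -0.10 ± 0.05 and -0.39 ± 0.05.

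Of 26 mitosis and spindle genes 0 rose and 23 fell, with a median of -0.63 against 0.00 over all genes, and 16 fell with the GC correction and 19 with thinned libraries. MKI67, the proliferation marker Ki-67, went from 1140, 1081 and 1116 CPM to 722, 699 and 668 CPM, a fall of -0.67 ± 0.06 beside -0.47 ± 0.04 in GFP cells. TOP2A, the topoisomerase that untangles chromosomes, went from 1101, 1134 and 1092 CPM to 742, 635 and 656 CPM, a fall of -0.70 ± 0.06. CENPF, a kinetochore protein, went from 1086, 1066 and 1124 CPM to 635, 631 and 614 CPM, a fall of -0.79 ± 0.06. In these 3 genes every CSC library lay below every DMSO library. CDK1, the mitotic kinase, fell by 0.93 ± 0.15, the spindle kinase AURKA by 0.85 ± 0.14, its activator TPX2 by 0.81 ± 0.09, the kinesin CENPE by 0.82 ± 0.09 and HMMR by 0.90 ± 0.13. In GFP cells TOP2A gave -0.65 ± 0.04, CENPF -0.80 ± 0.04, CDK1 -0.68 ± 0.10 and AURKA -0.56 ± 0.10. TPX2 gave -0.46 ± 0.07 there, CENPE -0.95 ± 0.06 and HMMR -0.94 ± 0.11. In GFP cells 19 of the 26 fell and 1 rose. The member that rose there, the mitotic kinase PLK1, gave 0.55 ± 0.18 in GFP cells, which was lost without CSC replicate 1 (0.40) or 2 (0.55) or DMSO replicate 1 (0.51) of that line, and -0.50 ± 0.21 in the knockout line, which did not pass, and the difference had an adjusted p of 0.114. UBE2C, a ubiquitin-conjugating enzyme of mitotic exit, went from 48.2, 47.3 and 45.8 CPM to 30.0, 28.0 and 12.3 CPM, a fall of -1.21 ± 0.26 beside 0.24 ± 0.13 in GFP cells. Its call was lost by DESeq2 and without CSC replicate 3 (-0.65), the library with the low value. In bulk samples, fewer dividing cells and less of these RNAs per cell cannot be told apart.

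Of 26 genes of DNA replication and E2F targets 1 rose and 7 fell, with a median of -0.25, and with the GC correction, and likewise with thinned libraries, 0 rose and 3 fell. RRM2, a subunit of ribonucleotide reductase, went from 407, 414 and 423 CPM to 319, 316 and 285 CPM, a fall of -0.44 ± 0.08 with no overlap, beside -0.33 ± 0.09 in GFP cells. MCM6, of the replicative helicase, gave -0.45 ± 0.10. Its call was lost with the GC correction and without CSC replicate 3 (-0.35), the deepest CSC library. Of 13 genes of the D cyclins, their kinases and the RB family 2 rose and 2 fell. With the GC correction 2 rose and 1 fell, and with thinned libraries 1 rose and 0 fell. Those that rose were CDKN1A and CDKN1C, and the call of CDKN1C was lost without CSC replicate 1 (0.94) or 3 (0.85) or DMSO replicate 1 (0.85) or 2 (1.0), by DESeq2, with the GC correction and with thinned libraries. CDK6, a kinase that p16INK4A inhibits, gave -0.49 ± 0.13 and RBL1, a relative of RB1, gave -0.44 ± 0.12. Both calls were lost without CSC replicate 3 (-0.35 and -0.33), with the GC correction, by DESeq2 and with thinned libraries. In GFP cells MCM6 gave -0.52 ± 0.08, CDK6 -0.29 ± 0.08 and RBL1 -0.43 ± 0.08. In the knockout line CCND1 gave 0.18 ± 0.11, which did not pass, and RB1 gave 0.05 ± 0.11. CCND1 was called higher in GFP cells, a call lost without CSC replicate 1 (0.29) or DMSO replicate 1 (0.37) or 3 (0.40). DESeq2, the GC correction and thinned libraries also lost that call.

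CDKN1A, the p21 inhibitor and a p53 target, rose from 220, 240 and 226 CPM to 452, 473 and 477 CPM. The CSC libraries all lay above the DMSO libraries, at 2.07-fold or 1.05 ± 0.09 with an adjusted p of 3.18e-24, and GFP cells gave 1.05 ± 0.08. Of 20 p53 targets 2 rose and 0 fell, with a median of 0.02. The other was GDF15, a secreted stress factor, at 1.78 ± 0.45 on 2.58 to 7.93 CPM with DMSO and 14.5 to 24.0 CPM with CSC. In GFP cells GDF15 gave 1.18 ± 0.62. Its knockout call was lost without DMSO replicate 1 (1.35), by DESeq2, with the GC correction and in thinned libraries, where 1 of the 20 was left. MDM2, the ubiquitin ligase of p53, gave 0.29 ± 0.10 in the main fit, which did not pass, and -0.19 ± 0.09 in GFP cells. By edgeR and with the GC correction (0.54) MDM2 was called higher in the knockout line, but not by DESeq2 or with thinned libraries.

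**Figure D4:**
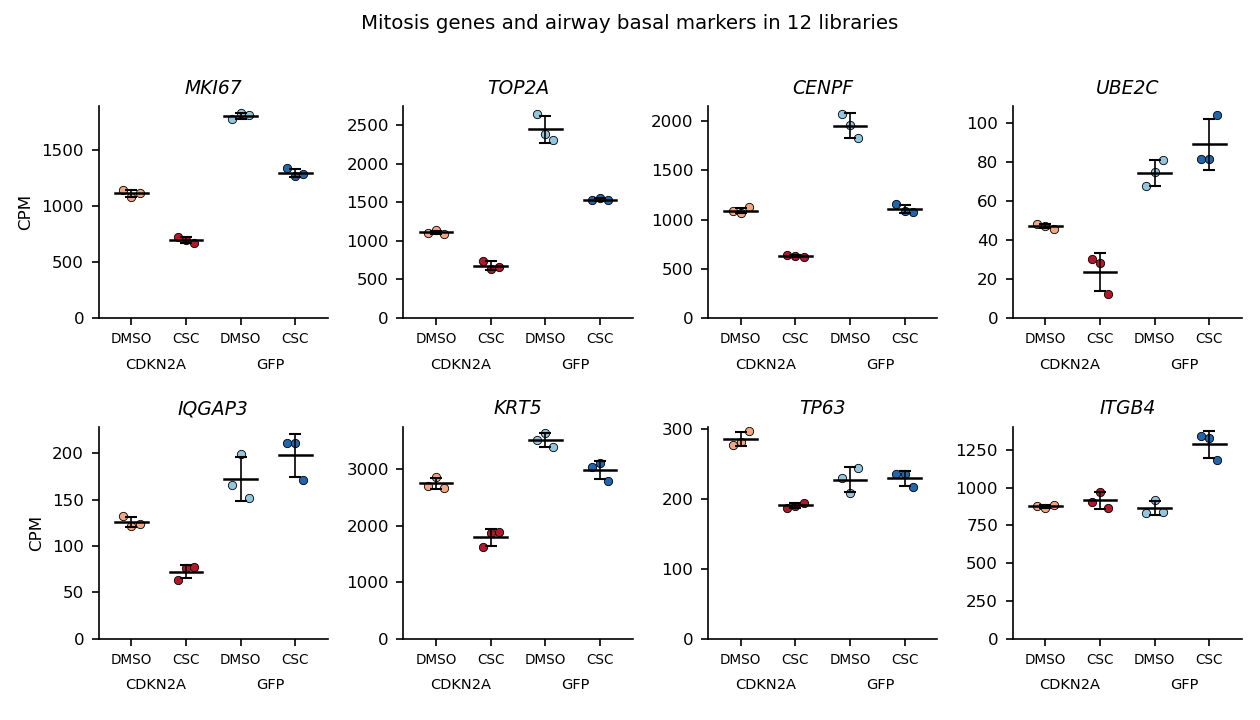
CPM (linear axis from 0) of 5 mitosis genes and 3 airway basal markers in the 12 libraries; points are libraries, lines are means of 3 and bars are SD. MKI67, TOP2A and CENPF fall with CSC in both lines, and KRT5 goes from 2668 to 2866 CPM with DMSO down to 1621 to 1891 CPM with CSC in the knockout line.

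The summed level of the 7 basal markers was 4153 to 4483 CPM with CSC and 5458 to 5556 CPM with DMSO, against 6060 to 6711 CPM and 6382 to 6728 CPM in GFP cells. KRT5, the basal keratin, went from 2710, 2866 and 2668 CPM to 1621, 1864 and 1891 CPM, a fall of -0.58 ± 0.04 with an adjusted p of 9.34e-36. Its partner KRT14 went from 281, 276 and 284 CPM to 159, 160 and 138 CPM, a fall of -0.88 ± 0.11 beside -0.79 ± 0.08 in GFP cells. TP63, the transcription factor of basal cells, went from 277, 281 and 297 CPM to 187, 190 and 194 CPM, a fall of -0.56 ± 0.10. The groups of all 3 genes were apart. Of the 7 markers 4 fell and 1 rose. The 2 further calls, ITGA6 (-0.27 ± 0.07) and KRT17 (0.24 ± 0.06), were lost without CSC replicate 3 (-0.22 and 0.19), by DESeq2 and with the GC correction. In GFP cells these gave -0.18 ± 0.05 and 0.57 ± 0.05. None of 7 cornified envelope genes tested passed by limma-voom, edgeR or DESeq2 and 0 had an unadjusted p under 0.05, with a median of 0.03.

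Lipid, glycolysis and matrix genes were also counted, to be set beside the 5.97% of all genes that rose and the 5.27% that fell. Of 17 genes of cholesterol synthesis and uptake 1 rose and 5 fell, with a median of -0.17. HMGCS1, of the first steps of the pathway, went from 455, 453 and 454 CPM to 356, 310 and 281 CPM, a fall of -0.54 ± 0.08 with no overlap, and SQLE fell by 0.43 ± 0.08. In GFP cells they gave -0.32 ± 0.08 and -0.09 ± 0.08. With the GC correction 2 genes fell and 0 rose. Of 16 hypoxia and glycolysis genes 5 rose and 0 fell, with 3 after the GC correction and 2 with thinned libraries. NDRG1, a stress response gene, went from 136, 140 and 120 CPM to 270, 366 and 272 CPM, a rise of 1.18 ± 0.11, and VEGFA, the angiogenic factor, rose by 1.04 ± 0.12, beside 0.71 ± 0.10 and 0.80 ± 0.13 in GFP cells. Of 22 matrix and TGF-beta responsive genes 3 rose and 2 fell, and with the GC correction 2 rose and 5 fell. TGFBI, an adhesion protein, rose by 0.38 ± 0.07, beside 0.49 ± 0.07 in GFP cells. Of 10 matrix proteases and inhibitors tested 1 rose. Of 31 proteasome subunits 3 rose and 0 fell, and 5 rose after the GC correction, which called 461 of all 13320 genes higher.

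Outside these lists the largest rises were of lipid exporters and small RNAs. ABCA1, which exports cholesterol, read 67.5, 54.1 and 51.4 CPM with CSC and 8.60, 11.1 and 7.93 CPM with DMSO. It rose by 2.60 ± 0.30 in the knockout line and by 2.21 ± 0.19 in GFP cells. ABCG1, a second cholesterol exporter, read 63.7, 46.1 and 38 CPM with CSC and 11.2, 3.02 and 12.3 CPM with DMSO, a rise of 2.5 ± 0.34 beside 1.38 ± 0.22. Both genes had CSC libraries that all exceeded the DMSO libraries. TXNDC5, a disulfide isomerase, rose by 2.23 ± 0.41, SECTM1 by 2.07 ± 0.31 and LOC101928841 by 1.97 ± 0.35. The small nucleolar RNAs SNORD81 and SNORD68 rose by 2.32 ± 0.32 and 2.18 ± 0.29, and of 184 such RNAs tested 24 rose and 1 fell, with 9 of 144 called higher and 1 lower after the GC correction. The symbols of these RNAs can stand for near-identical copies that share reads. In GFP cells TXNDC5 gave 0.74 ± 0.45, SECTM1 2.25 ± 0.27, SNORD81 0.55 ± 0.42 and SNORD68 1.11 ± 0.20, and LOC101928841 was not tested. All of the 12 largest rises kept their call in each of the 6 fits that left out 1 library.

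Of the largest falls, HMGB2, a chromatin protein of dividing cells, read 146, 84.1 and 89.3 CPM with CSC and 210, 272 and 251 CPM with DMSO, a fall of -1.23 ± 0.13 with no overlap beside -0.71 ± 0.10 in GFP cells. PITPNB, a lipid transfer protein, read 33.7, 14.0 and 16.7 CPM with CSC and 46.5, 49.3 and 53.7 CPM with DMSO, a fall of -1.29 ± 0.27 beside 0.22 ± 0.21 in GFP cells. NIPBL-DT, a divergent transcript, fell by 1.34 ± 0.37, beside -0.67 ± 0.19 in GFP cells. Its knockout call was lost by DESeq2, with the GC correction (-1.10) and with thinned libraries. HMGB2, PITPNB and NIPBL-DT were the only genes among the 12 largest falls that kept their call whichever library was left out. Among the others, CBY1 fell by 1.47 ± 0.41 and lost its call without CSC replicate 3 (-0.64), and TDRD3 fell by 1.39 ± 0.32 and lost it without CSC replicate 2 (-0.80). Both genes also lost their call by DESeq2, and in GFP cells they gave -0.21 ± 0.36 and -0.52 ± 0.18.

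The difference between the CSC effects of the 2 lines was tested as an interaction over the 12 libraries, which called 41 of 14473 genes (0.283%), 11 higher in the knockout line (0.0760%) and 30 lower (0.207%), and 1394 genes had an unadjusted p under 0.05. DESeq2 called 12 genes and the fit on thinned libraries 13. EGR1, an early response transcription factor, had the largest difference of those called with a mean count of 10 or more and kept in every alternative run. It went from 139, 120 and 142 CPM to 304, 328 and 289 CPM in the knockout line and from 22.6, 43.1 and 38.9 CPM to 220, 223 and 156 CPM in GFP cells. The groups were apart in both lines, and the DMSO level was higher in the knockout line. The changes were 1.2 ± 0.11 and 2.56 ± 0.18, and the difference was -1.33 ± 0.21 with an adjusted p of 1.9e-05. Over the 6 other lines EGR1 changed by 1.37 to 2.83.

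Among the basal markers, KRT5 fell more in the knockout line than in GFP cells, where it went from 3526, 3648 and 3387 CPM to 3045, 3115 and 2797 CPM. The change there was -0.21 ± 0.03, and the difference of -0.35 ± 0.05 had an adjusted p of 3.29e-06. ITGB4, the integrin of hemidesmosomes, did not pass in the knockout line, at 905, 973 and 865 CPM with CSC, 878, 866 and 886 CPM with DMSO and a change of 0.06 ± 0.05. In GFP cells it rose from 832, 915 and 839 CPM to 1342, 1331 and 1183 CPM, by 0.60 ± 0.05, and the difference of -0.52 ± 0.07 had an adjusted p of 2.24e-06. With the GC correction the knockout change of ITGB4 was -0.37, called lower, and the GFP change was 0.03, not called. The difference with that correction was -0.43 and was still called. TP63 gave 0.03 ± 0.09 in GFP cells, and its difference of -0.56 ± 0.13 had an adjusted p of 0.0245 by limma. This call was lost without CDKN2A CSC replicate 1 (-0.54), CDKN2A DMSO replicate 3 (-0.55), GFP CSC replicate 2 (-0.55) or GFP DMSO replicate 2 (-0.50), by DESeq2 and with thinned libraries.

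The differences of EGR1, KRT5 and ITGB4 passed in every alternative and in each of the 12 fits that left out 1 library. IQGAP3, a scaffold protein of dividing cells, fell from 132, 122 and 124 CPM to 63.7, 76.1 and 77.0 CPM in the knockout line, by 0.77 ± 0.15, and gave 0.24 ± 0.10 in GFP cells, a difference of -0.98 ± 0.19. Its call was kept in the 12 fits and lost with thinned libraries. SLC7A11 differed the other way, at 0.39 ± 0.06 in the knockout line and -0.12 ± 0.07 in GFP cells, a difference of 0.53 ± 0.10 that was lost with thinned libraries and with the GC correction. MAPK9, the kinase JNK2, rose from 69.7, 74.5 and 74.0 CPM to 118, 92.1 and 100 CPM in the knockout line, by 0.52 ± 0.15, and fell by 0.45 ± 0.13 in GFP cells. The difference was 0.99 ± 0.20, and the knockout call was lost without CSC replicate 1 (0.43) or DMSO replicate 1 (0.48) and the GFP call without CSC replicate 1 (-0.37) or 2 (-0.43) or DMSO replicate 3 (-0.33). DESeq2 called neither the difference nor the change in either line.

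The smaller rise of CYP1A1 in the knockout line was a difference of -1.78 ± 0.44 with an adjusted p of 0.0448. It did not pass without CDKN2A CSC replicate 1 (-1.59), CDKN2A DMSO replicate 1 (-1.78) or 2 (-1.79), GFP CSC replicate 2 (-1.68), or GFP DMSO replicate 1 (-2.0), 2 (-1.52) or 3 (-1.83), and it was -0.28 with thinned libraries. The GFP DMSO libraries held 11, 5 and 10 reads of CYP1A1 and the knockout DMSO libraries 21, 18 and 17. Among the other AhR targets, SLC7A5 differed by -0.30 ± 0.06 with an adjusted p of 0.00392 by limma. This call was lost without CDKN2A CSC replicate 1 (-0.24) or GFP DMSO replicate 1 (-0.21), by DESeq2, by edgeR and with thinned libraries. For CYP1B1 the difference was -0.25 ± 0.17, for TIPARP 0.02 ± 0.14 and for NQO1 -0.28 ± 0.15, none of which passed.

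**Figure D5:**
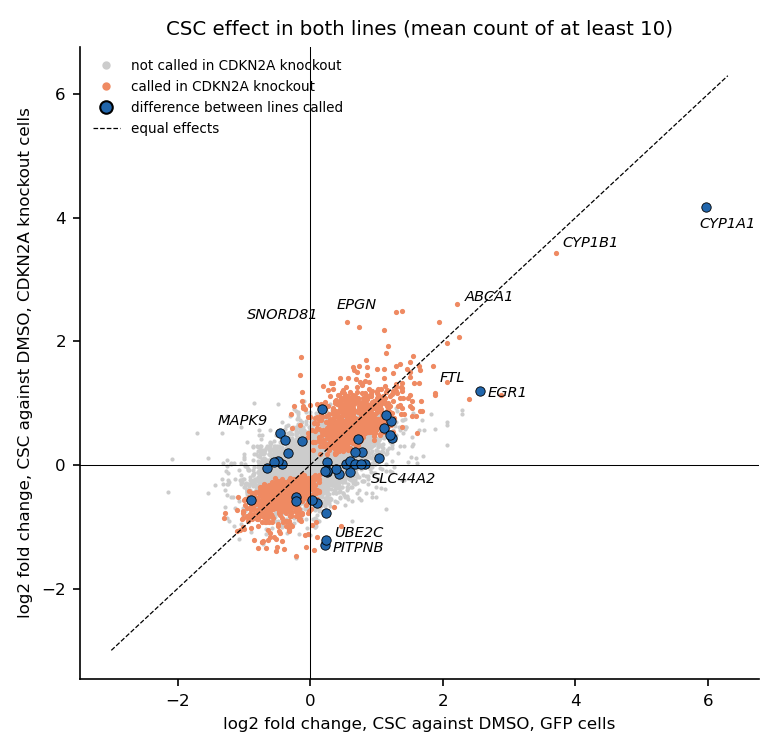
Log2 fold change of CSC against DMSO in GFP cells (x axis) and in CDKN2A knockout cells (y axis) for genes averaging 10 or more reads in the 6 knockout libraries; orange points were called in the knockout line and blue points were called as different between the lines. CYP1A1, at 5.97 and 4.18, and EGR1, at 2.56 and 1.2, lie below the dashed line of equal effects.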

How the data were processed

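SFL RNA-seq was measured in 95 samples, of which 12 entered the fits. The authors deposited raw counts per RefSeq gene: 75-bp single-end reads were trimmed with Cutadapt 1.12, checked with FastQC 0.11.5, aligned to hg19 with STAR 2.5.2b and counted with featureCounts. The strand setting is not given in the sources used here, so reads of a gene and of an antisense gene may be mixed. No molecular identifiers were used, so read numbers can include copies made by PCR.

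From these counts, genes averaging more than 1 read over the compared samples were fitted by limma-voom (limma 3.58.1, edgeR 4.0.16, R 4.3.3) with TMM scaling and no covariate. The design had 3 samples against 3, or 12 samples with an interaction term. Tests were two-sided, with Benjamini-Hochberg adjustment over all genes of the fit and a threshold of 0.05. Replicate numbers did not pair the samples: deviations from the group means of CSC and DMSO samples with the same number correlated at 0.00702 to 0.0411 in the knockout line and at 0.0388 to 0.076 in GFP cells over 10149 genes, so no block was used. Named genes were members of the lists, and the 12 largest rises, falls and differences that were called, averaged 10 or more reads and, for rises and falls, groups that did not overlap. The members and lists were chosen with earlier results of these data known. A few genes stand in 2 lists (NQO1, SLC7A5, ALDH3A1, SLC7A11, CDKN1A and the HSP90 genes). GC content and exon length came from GENCODE on GRCh37, which matched 24309 of 27978 symbols (86.9%). The correction subtracted, in each library, loess curves with a span of 0.3. Alternatives used edgeR's quasi-likelihood test, DESeq2 1.42.0, other filters and libraries thinned to 485031 reads. The fitting code was tested on simulated data.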

Additional observations from a re-analysis of the deposited data

Results flagged for a closer look

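The 12 genes with the largest called differences between the CSC effect in CDKN2A knockout cells and that in GFP cells, by the limma interaction term, are listed here because the effect differs between the 2 lines. For EGR1 (-1.33), MAPK9 (0.99), IQGAP3 (-0.98) and THBS1 (-0.71) the call was kept in each of 12 fits that left out 1 library, though that of MAPK9 was lost by DESeq2 and that of IQGAP3 with thinned libraries. THBS1, a matrix glycoprotein, gave 0.02 in the knockout line and 0.76 in GFP cells, and its difference was not called by DESeq2, among the 10000 most variable genes or with thinned libraries.

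The other 8 calls each depended on at least 1 library. CYP1A1 (-1.78) was called in 5 of 12 such fits. PITPNB (-1.49) was lost without CDKN2A CSC replicate 2 (-1.34) or 3 (-1.37), CDKN2A DMSO replicate 3 (-1.45) or GFP DMSO replicate 2 (-1.33). UBE2C (-1.42) was lost without CDKN2A CSC replicate 3 (-0.94). The small nucleolar RNA SNORA81 (-0.89) was lost without CDKN2A CSC replicate 3 (-0.75), CDKN2A DMSO replicate 1 (-0.78) or GFP DMSO replicate 1 (-0.72). ZNF483 (0.81) was lost without CDKN2A CSC replicate 1 (0.78) or 3 (0.78), CDKN2A DMSO replicate 1 (0.76) or 3 (0.74), GFP CSC replicate 1 (0.68) or GFP DMSO replicate 1 (0.75). The choline transporter SLC44A2 (-0.79) was lost without CDKN2A CSC replicate 1 (-0.76) or 2 (-0.75) or GFP DMSO replicate 1 (-0.74). The receptor kinase EPHA2 (-0.76) was lost without GFP DMSO replicate 1 (-0.70) or 3 (-0.70). The transcription factor E2F7 (0.74) was lost without CDKN2A CSC replicate 3 (0.55) or DMSO replicate 2 (0.59). With thinned libraries the calls of all 8 were lost, and those of PITPNB, UBE2C, SNORA81, ZNF483, SLC44A2 and EPHA2 were also lost by DESeq2.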

How the results depend on the processing

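For the 1590 calls in the knockout line, DESeq2 gave 488, the GC and length correction 728 with or without the replicate block, and thinned libraries, a choice made after seeing the data, 841. Of the 1590 calls 469 were kept under the correction and 795 with thinned libraries. The same alternatives gave 1635, 1002 (1118 with the block) and 1651 in GFP cells, against 3575. For the 41 differences between the lines DESeq2 gave 12, the 10000 most variable genes 10, thinned libraries 13 and the genes with a known GC content 65 before correction. Without 1 library the counts were 1081 to 1561, 2479 to 3198 and 26 to 55. The replicate block gave 1553, 3509 and 61 calls, although the numbers did not pair the samples. Among genes called in at least 1 of the fits compared, with the correction, and with the correction and the replicate block, KRT17 (-0.00 and -0.01) and ITGB4 (-0.37 and -0.36) changed sign in the knockout line. By the same count the sign changed in GFP cells for SLC7A11 (0.35, 0.33), SEL1L (0.11, 0.09), HSPD1 (0.14, 0.12), CDK6 (0.04, 0.04), HMGCS1 (0.05, 0.02), STARD4 (0.06, 0.06), ITGA6 (0.05, 0.05) and ZNF483 (0.02, 0.02). Apart from what the corrections remove or the thinning discards, the cause was not tested. Over the single genes and alternatives, 4048 calls kept their direction and passed, 503 kept their direction and no longer passed, and 16 changed sign and no longer passed. Of values not called, 50 newly passed in the same direction, 4 newly passed with the sign changed and 990 stayed uncalled with the same sign and 95 with the sign changed.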

Other observations

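In the knockout line 5.97% of all genes rose and 5.27% fell, and 3 gene classes outside the lists were counted beside this, with no test between them. Of 80 ribosomal protein genes tested 8 rose and 15 fell with CSC, with a median log2 change of 0.00, and in GFP cells 19 rose and 14 fell. Of 472 ZNF genes, which encode zinc finger proteins and are in the main transcription factors, 16 rose and 19 fell, and with the GC correction 6 rose and 1 fell. In GFP cells 21 of 496 rose and 88 fell. Of 87 nuclear-encoded genes of the respiratory chain 9 rose and 4 fell, with a median of -0.05, and with the GC correction 4 of 84 rose and 0 fell, with a median of 0.10. Ribosomal protein genes have many near-identical pseudogenes that could take a share of their reads in counting.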
